A study of Mus musculus with 4 samples.

Results

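The glial cell line-derived neurotrophic factor (GDNF) family and its receptors were examined in the adult mouse ureter. The 8 genes are the ligands Gdnf, Nrtn and Artn, the co-receptors Gfra1, Gfra2, Gfra3 and Gfra4, and the receptor tyrosine kinase Ret, out of 18193 named genes on the arrays. They were taken by name, with every probe set whose only annotated symbol is one of them, which gave 15 of 45037 probe sets. Samples were 4 unpooled ureters of adult male mice at Theiler stage 28, offspring of FVB/N females and SMGA/EGFP males, dissected between kidney and bladder by the green fluorescence. All 4 carried the SMGA/EGFP reporter, in which EGFP marks cells that use the smooth muscle gamma actin gene (Actg2), and no mouse without it was part of the study. After 2 rounds of amplification, the RNA of each sample was measured on its own Affymetrix MOE430 array. The samples form 1 group, so the questions are which of these genes were expressed and how much their levels varied from sample to sample. They are called replicates 1 to 4, an order without meaning. Nothing in the labels says whether the samples are of different animals, so p-values measure only the spread between these samples, which may be technical. With 4 arrays, precision is limited by their number.

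The GDNF ligands are small secreted dimers of the cystine knot type. A ligand binds its preferred co-receptor, a protein held to the membrane by a lipid anchor, and the pair then activates Ret, the shared kinase that carries the signal into the cell. In the embryo GDNF from the mesenchyme draws out the ureteric bud, the outgrowth that forms the ureter and the collecting ducts, through Gfra1 and Ret on the bud. In the adult the family is best known for the support of autonomic, sensory and motor neurons.

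The ureter expressed Ret, its co-receptors Gfra1, Gfra2 and Gfra3, and the ligands Nrtn and Artn, while Gdnf and Gfra4 were not above background. That is 6 of the 8 genes, where 57.9% of all named genes were above background. Levels are log2(intensity + 16). Background was set on each array at the 95th percentile of 84 probe sets for chemosensory receptors, which lay between 6.98 and 7.57, and a gene counted as above it where any of its probe sets had a Benjamini-Hochberg adjusted p under 0.05 over all probe sets in limma's moderated, one-sided test. By probe sets, 8 of the 15 were above background, against 41.0% of all. In every one of the 4 samples the same count held without a test, 6 of 8 genes over the array's own threshold, against 67.0%, 68.6%, 67.4% and 66.0% of all named genes in replicates 1 to 4. These were the same 6 genes, and 58.4% of all named genes were over the threshold in all 4 samples. The median member lay 1.49 log2 units over the threshold and the median of all named genes 1.89. Gfra3 passed by the smallest margin and lost its call without replicate 1, 2 or 4, as given below. A stricter background, 3 median absolute deviations over the chemosensory median, left 3 of 8.

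**Figure D1:**
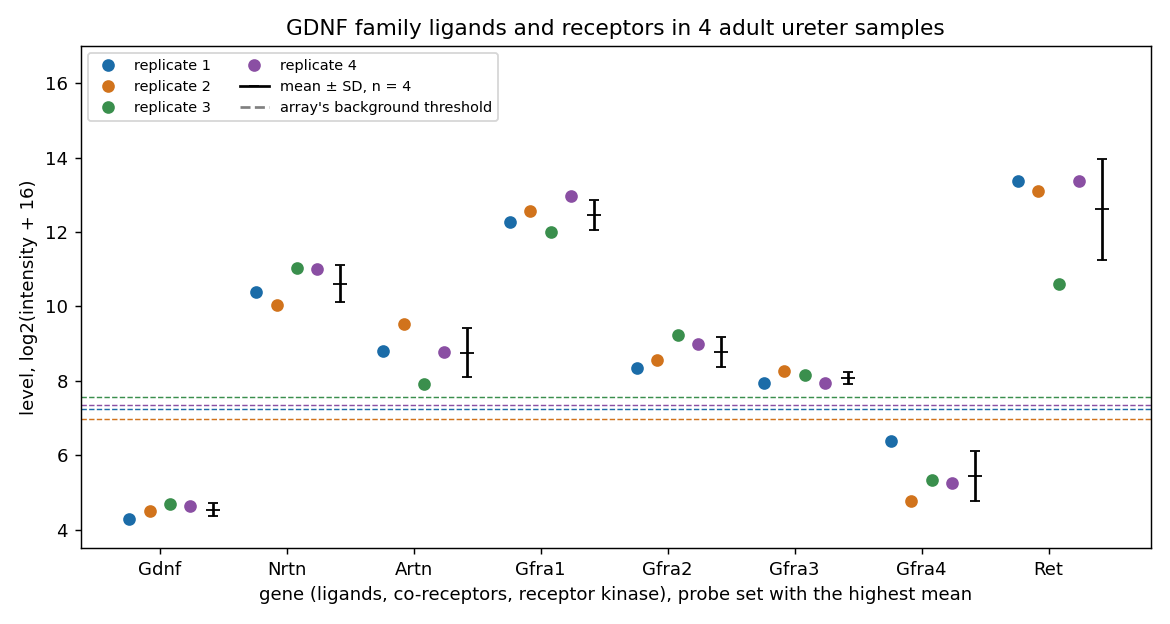
Level in log2(intensity + 16) of each of the 8 genes (x axis, probe set with the highest mean) in the 4 samples (coloured points), with mean ± SD over n = 4 in black and each array's background threshold as a dashed line in that sample's colour. All points of Gdnf and Gfra4 lie under the thresholds, all points of the other genes lie over them, and Ret in replicate 3 (10.59) lies apart from its other samples (13.09 to 13.38). Heights of different genes are not comparable, because each probe set has its own response.

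The tissue label was checked against markers. All 10 smooth muscle genes were above background, among them Actg2 at 11.91 ± 0.96, Acta2 at 14.73 ± 0.70 and Myh11 at 11.09 ± 0.60 (SD, n = 4). So were 13 of 15 urothelial genes, with the uroplakins Upk1a at 10.60 ± 0.89, Upk1b at 15.01 ± 0.56 and Upk2 at 10.02 ± 0.36. By contrast, 0 of 11 genes of kidney tubule and duct passed (limma, adjusted p under 0.05, with 1 at an unadjusted p under 0.05), with Umod at 5.32 ± 0.66, Slc12a1 at 6.35 ± 0.36 and Slc12a3 at 5.08 ± 0.54. Without a test, 2 to 3 of the 11 were over the array's threshold in each sample. Aqp2, highest at 8.46 in replicate 3, and Avpr2, highest at 9.22 in replicate 1, were each over it in 3 of 4 samples. Both were named after their values were seen. Genes of other organs were over the threshold in some samples, with 8 of 8 skeletal muscle genes in replicate 3 (Myh4, Acta1 and Ckm at 16.39, 14.90 and 13.03), 6 of 6 liver genes in replicates 1 and 3 (Alb, Apoa1 and Apoa2), and 5 of 5 male reproductive tract genes in replicates 1 and 2 (Svs4, Svs2 and Svs5). Pbsn of the last list, its only gene above background, had 15.41 in replicate 3 against 8.80 to 9.42 in the others. It was named after its values were seen. Of the macrophage genes, which include Csf1r, Cd68 and Adgre1, 6 of 7 were above background. Of 4 fat cell genes 0 passed, with 1 at an unadjusted p under 0.05, but Fabp4, a fatty acid binding protein gene, had 14.93 in replicate 3 against 7.06 to 8.33, and Adipoq, the adiponectin gene, had 7.77 against 4.54 to 5.77. Cidec, a lipid droplet gene, had 4.73 ± 0.32. The ratio of 3' to 5' signal, a measure of RNA length, ranged from 18.8 to 36.9 for Gapdh and from 4.43 to 19.8 for Actb. These are bulk samples, in which fewer cells of a type and less RNA per cell cannot be told apart.

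Among the ligands, Gdnf itself was not detected. Its 1 probe set had intensities of 3.65, 6.56, 9.98 and 8.98 in replicates 1 to 4, or a level of 4.53 ± 0.18 (SD, n = 4). Its distance from the array's threshold ran from -2.93 to -2.48 log2 units, under it in all 4 samples, and no alternative tried brought the gene over it. A level this low gives only a bound, and a transcript that the probe set does not match would be missed.

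Nrtn, the gene of neurturin, the preferred ligand of Gfra2, was above background in every sample. Its intensities were 1313, 1036, 2087 and 2038, with levels of 10.38, 10.04, 11.04 and 11.004. Replicates 3 and 4 were the higher pair and replicate 2 was lowest. The mean lay 3.33 ± 0.23 (SE, n = 4) log2 units over the threshold (limma, adjusted p = 1.98e-06), and the SD between samples was 0.49, beside a median of 0.41 over all 10535 genes above background.

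Artn, the gene of artemin, the preferred ligand of Gfra3, was lower against the threshold and varied more. Its intensities were 430, 727, 225 and 424, with levels of 8.80, 9.54, 7.91 and 8.78. Replicate 2 was highest and replicate 3 was lowest, where the gene was only 0.35 log2 units over the array's threshold. The mean distance was 1.47 ± 0.38 (SE, n = 4; limma, adjusted p = 0.0067), and it was 1.85 without replicate 3.

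The windows of 250 bases upstream of the start sites of the 3 ligand genes are shown because these genes fell on different sides of the background call. They are read 5' to 3' on the gene's strand from RefSeq's table for GRCm38.p6, and capitals mark matches on either strand to TATAAA, the core of the TATA box, or GGGCGG, the GC box, which do not overlap here.
Gdnf, chr15:7809798-7810047, plus strand: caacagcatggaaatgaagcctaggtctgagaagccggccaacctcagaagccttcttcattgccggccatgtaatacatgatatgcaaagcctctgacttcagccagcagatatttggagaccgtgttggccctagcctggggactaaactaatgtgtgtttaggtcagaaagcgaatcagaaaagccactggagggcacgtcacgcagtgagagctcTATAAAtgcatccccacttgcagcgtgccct
Nrtn, chr17:56757549-56757798, minus strand: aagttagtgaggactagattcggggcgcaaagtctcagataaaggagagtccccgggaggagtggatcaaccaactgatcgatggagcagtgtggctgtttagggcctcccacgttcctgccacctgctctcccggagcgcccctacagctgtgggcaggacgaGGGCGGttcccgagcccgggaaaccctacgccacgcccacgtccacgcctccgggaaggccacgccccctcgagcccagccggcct
Artn, chr4:117929764-117930013, minus strand: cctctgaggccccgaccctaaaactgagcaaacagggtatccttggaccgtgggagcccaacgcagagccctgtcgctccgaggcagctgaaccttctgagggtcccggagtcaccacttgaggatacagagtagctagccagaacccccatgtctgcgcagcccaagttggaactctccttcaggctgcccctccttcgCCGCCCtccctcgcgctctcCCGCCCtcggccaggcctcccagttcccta
The Gdnf window held 1 TATAAA and 0 GGGCGG, the Nrtn window held 1 GGGCGG and the Artn window 2, both without TATAAA. Of 32851 windows of this length in the table, 12.4% held TATAAA and 32.7% held GGGCGG. G and C made up 50.8% of the Gdnf window, 64.8% of the Nrtn window and 63.6% of the Artn window, against a median of 52.4% over all windows. CpG dinucleotides numbered 7, 19 and 13 in that order, against a median of 6. A second Gdnf start site in the table, with a window at chr15:7813477-7813726, held neither motif and 14 CpG. These are matches of letters, and no binding or start site use was measured. In all, 5 of the 8 genes had a window in the table.

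Gfra1, the co-receptor for GDNF, was well above background by its leading probe set. Intensities of 1439015_at were 4929, 6080, 4112 and 7975, with levels of 12.27, 12.57, 12.01 and 12.96. Replicate 4 was highest and replicate 3 lowest, within a range of under 1 log2 unit. The mean distance from the threshold was 5.17 ± 0.26 (SE, n = 4; limma, adjusted p = 2.72e-07) and the SD between samples 0.41. The ureter had the co-receptor of a ligand whose own probe set was at background.

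The other Gfra1 probe sets gave another order of the samples. With 1450440_at the levels were 10.75, 8.61, 9.93 and 10.04, highest in replicate 1 and lowest in replicate 2, with a mean distance of 2.55 and an adjusted p of 0.000123 (limma). With 1421973_at the levels were 5.72, 6.28, 5.46 and 7.31, under the threshold in all 4 samples. So 2 of 3 probe sets of Gfra1 were above background. Of 9010 genes with more than 1 probe set, 51.6% had probe sets on both sides of the call.

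Gfra2, the co-receptor for neurturin, was above background by 1 of its 5 probe sets. The leading one, 1425579_at, had intensities of 311, 361, 586 and 493, with levels of 8.35, 8.56, 9.23 and 8.99. Replicates 3 and 4 were the higher pair, as for its ligand Nrtn, within a range of under 1 log2 unit. These arrays also had the higher medians over all probe sets, 7.88 and 7.61 against 7.32 and 7.15 in replicates 1 and 2. As distances from each array's threshold the values were 1.12, 1.58, 1.67 and 1.63. The mean distance was 1.501 ± 0.27 (SE, n = 4; limma, adjusted p = 0.000836). After quantile normalization the deviation of replicate 2 from the other samples changed from -0.30 to 0.02.

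Another pair of Gfra2 probe sets, 1433716_x_at and 1459847_x_at, whose suffix marks probes that can match other transcripts, was over the threshold in 3 of 4 samples each and did not pass the test (limma, adjusted p = 0.249 and 0.157). Both were lowest in replicate 1, at 6.09 and 6.999, and highest in replicate 3, at 9.07 and 8.30. The remaining probe sets, 1423007_a_at and 1425578_a_at, were under the threshold in all 4 samples.

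**Figure D2:**
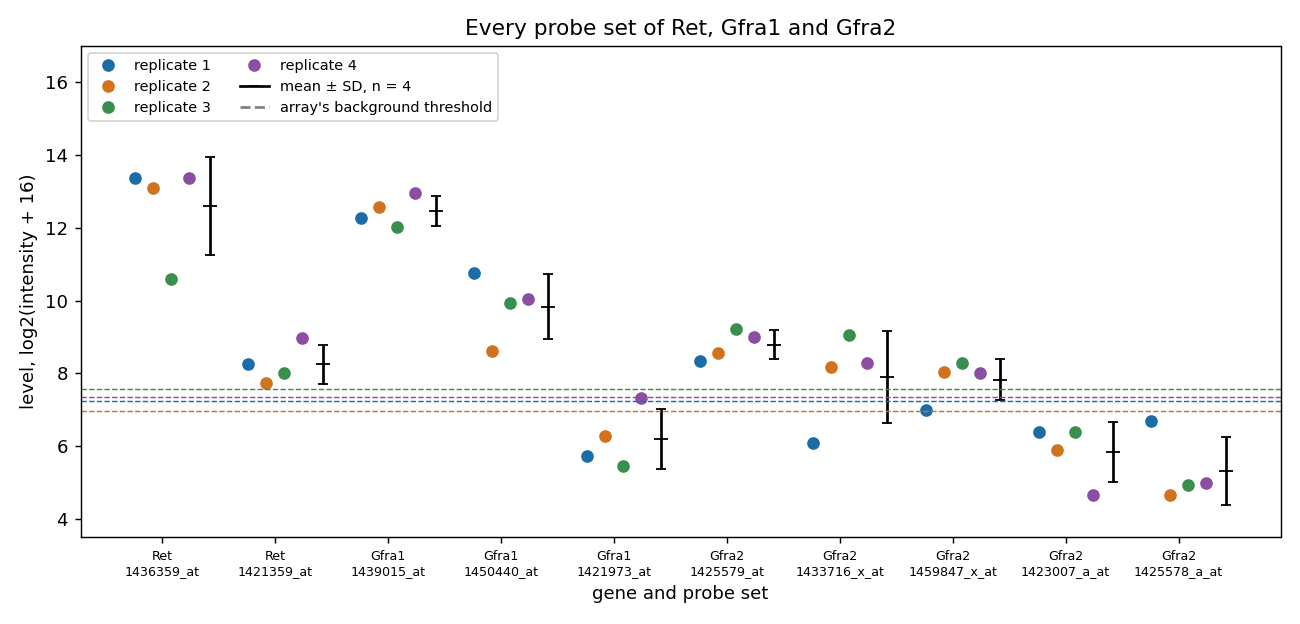
Level in log2(intensity + 16) of every probe set of Ret, Gfra1 and Gfra2 (x axis) in the 4 samples (coloured points), with mean ± SD over n = 4 in black and each array's background threshold dashed in the sample's colour. The low replicate 3 of Ret is seen with 1436359_at (10.59) and is not seen at that size with 1421359_at (8.01, between 7.75 in replicate 2 and 8.97 in replicate 4), and 1 of 5 Gfra2 probe sets lies over the thresholds in all samples.

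Gfra3, the co-receptor for artemin, was just above background. Its 1 probe set had intensities of 231, 294, 271 and 229, with levels of 7.95, 8.28, 8.17 and 7.93. The samples were close, with an SD of 0.17, and each lay between 0.58 and 1.30 log2 units over its array's threshold. The mean distance was 0.80 ± 0.30 (SE, n = 4; limma, adjusted p = 0.0344). The call was lost without replicate 1 (adjusted p = 0.0816), without replicate 2 (0.119) and without replicate 4 (0.0632), and with the background at the 99th percentile (0.442). The order of the samples also depended on the scaling, since quantile normalization turned replicate 3 from 0.11 above the others to -0.36.

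Gfra4, the co-receptor for persephin, was not above background. Its 1 probe set had intensities of 67.3, 11.4, 24.2 and 22.3, with levels of 6.38, 4.77, 5.33 and 5.26. All samples were under the threshold, with distances of -0.85 log2 units in replicate 1 and -2.24 to -2.10 in the others. Persephin's gene, Pspn, had a level of 6.64 ± 0.44 (SD, n = 4) and was not above background either (limma, adjusted p = 1).

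Ret, the kinase of the family, was well above background and was the member that differed most between samples. Intensities of its leading probe set 1436359_at were 10638, 8702, 1527 and 10564, with levels of 13.38, 13.09, 10.59 and 13.37. Replicates 1, 2 and 4 lay within 0.3 log2 units of each other and replicate 3 lay far under them, though still 3.02 over its array's threshold. The mean distance from the threshold was 5.32 ± 0.51 (SE, n = 4; limma, adjusted p = 1.67e-05), and 6.09 without replicate 3.

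The level of Ret in replicate 3 differed by -2.69 log2 units from the mean of the other samples. Of the 10535 genes above background, 89 (0.845%) were at least as far under the others in that sample. The SD of Ret was 1.35, a value reached by 2.88% of those genes. In a test of the variance of the distance from the threshold against limma's trended prior, Ret had an unadjusted p of 0.0164 and an adjusted p of 1. No member passed this spread test, and 0 of 18455 probe sets above background did, while 724 (3.92%) had an unadjusted p under 0.05. With limma's prior fitted without trend, 0 probe sets passed as well. Only probe sets above background entered the test. Among them Alb, with levels from 6.91 to 14.58, did not pass either (test of variance, unadjusted p = 0.000906). The lack of a pass therefore does not show that Ret or another member was steady.

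The second Ret probe set, nearer to background, did not show a difference of this size. With 1421359_at the intensities were 291, 199, 242 and 486, with levels of 8.26, 7.75, 8.01 and 8.97. Replicate 4 was highest and replicate 3 lay between the others, -0.32 log2 units from their mean. As distances from each array's threshold the values were 1.03, 0.77, 0.44 and 1.61, and by this measure replicate 3 was lowest. It was above background too, by 0.96 ± 0.31 (SE, n = 4; limma, adjusted p = 0.0195). Where in the transcript each probe set lies was not analysed here. The 3' to 5' ratios of replicate 3, 31.6 for Gapdh and 5.27 for Actb, lay within the range of the other arrays.

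Several marker lists moved with the leading Ret probe set in replicate 3. All 9 fibroblast genes and all 5 endothelial genes were lower there than the mean of the other samples, with median deviations of -2.15 and -2.00. The collagen gene Col1a2 had 13.94, 13.63, 11.43 and 13.15 in replicates 1 to 4, Col3a1 had 16.07, 15.77, 13.41 and 15.37, and Col1a1 had 9.55 in replicate 3 against 10.20 to 11.01. Of the endothelial genes Cdh5, a cadherin, had 11.73, 12.45, 9.84 and 11.79, Pecam1, an adhesion molecule that did not pass, had 7.27 in replicate 3 against 7.75 to 8.65, and Kdr, a VEGF receptor, had 9.71 against 9.56 to 10.36. Their levels summed to 90.4 in replicate 3 against 112 to 116 elsewhere for fibroblasts, and to 45.2 against 51.2 to 54.5 for endothelium. Of 7 mesothelium genes, a list written after the data were seen, 5 were lower, with a median of -1.74 and summed levels of 56.4 against 65.6 to 66.3. Msln, the mesothelin gene, had 7.31 in replicate 3 and 11.14 to 13.60 elsewhere, and Gpm6a, a membrane glycoprotein gene, had 10.04 against 12.22 to 13.24, while Upk3b of the same list was highest there at 14.34. In the opposite direction, 12 of 15 urothelial genes were higher in replicate 3, with a median of 0.42 and summed levels of 210 against 191 in each other sample. Most of that gap in the sum comes from the 2 urothelial genes without a call, picked out once their values were known. Upk3a, a uroplakin gene, had 14.91 in replicate 3 against 4.55 to 7.03, and Krt20, a keratin gene of umbrella cells, had 11.69 against 6.07 to 7.09. Skeletal muscle genes were higher in 8 of 8 cases, with summed levels of 110 against 47.3 to 49.2. Fat cell genes were higher in 3 of 4 cases, with a median of 1.28 and summed levels of 32.4 against 22.0 to 23.6. Most of that gap comes from Fabp4, which deviated by 7.15, beside 2.44 for Adipoq and 0.13 for Lep. Lep, under the threshold in all 4 samples, was named after its values were seen. Over all genes above background the median deviation of replicate 3 was -0.05. The part of these cells in the level of Ret was not tested.

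**Figure D3:**
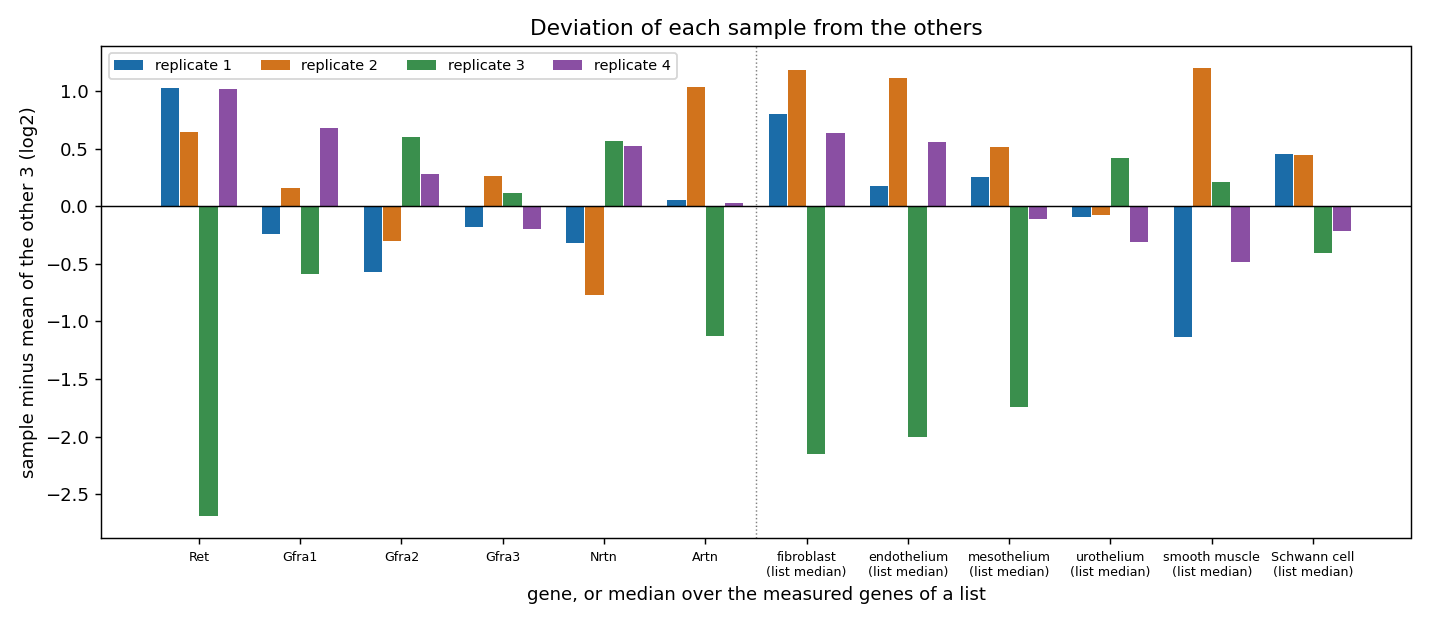
Deviation of each sample (coloured bars) from the mean of the other 3 in log2 units (y axis), for the 6 members above background and, right of the dotted line, as the median over the measured genes of marker lists. Ret is at -2.69 in replicate 3, beside medians of -2.15 for fibroblast, -2.00 for endothelium and -1.74 for mesothelium genes, while Gfra2 (0.60) and Nrtn (0.57) are higher in that sample. Levels are not corrected for the arrays' thresholds, of which that of replicate 3 is highest at 7.57.

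The other members did not share this pattern in full. In replicate 3 the deviation from the other samples was -1.13 for Artn and -0.59 for Gfra1, while Gfra2 was higher by 0.60, Nrtn by 0.57 and Gfra3 by 0.11. These rises were smaller or absent as distances from each array's threshold. By that measure replicate 3 had 1.67 against 1.12 to 1.63 for Gfra2, and 3.47 against 3.06 to 3.65 for Nrtn. For Gfra3 it had 0.60 against 0.58 to 1.30. Whether members differ from each other in this respect was not tested, since 1 sample stands on one side.

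The genes whose profile over the 4 samples was most like each member's were sought among the genes above background, by the root mean square difference of levels centred on each gene's own mean. For Ret these were Alox12, a lipoxygenase gene, at 0.02 log2 units, Muc15, a membrane mucin gene, at 0.05, and Upk3bl, a gene of the uroplakin 3 family, at 0.10. All of these were lowest in replicate 3, at 10.60, 7.002 and 9.15. In all 23 genes lay within 0.25 of Ret. For Artn the nearest were Cav2, a caveolin gene, at 0.06, Fam172a at 0.07 and Nrp2, a neuropilin gene, at 0.07, with 339 genes within 0.25. For Gfra1 they were Hcfc1, Eps15 and Gnl3l at 0.02 to 0.04, for Gfra2 Psmd9, Gdap2 and Eepd1 at 0.03 to 0.04, for Gfra3 Tspan12, Crybg3 and Brd9 at 0.01 to 0.02, and for Nrtn Smco4, Fry and Accs at 0.03 to 0.04. Between 629 and 2252 genes lay within 0.25 of each of these 4 members. With 4 samples such likeness is a description only.

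Of the other ligands and co-receptors of the system, 3 of 5 measured genes passed (60%, beside 57.9% over all named genes). Sorl1, a sorting receptor that binds GDNF and its co-receptor, had 15.37 ± 0.37, Gas1, a membrane protein related to the co-receptors, had 11.05 ± 0.69, and Sdc3, a heparan sulfate proteoglycan that binds GDNF, had 9.70 ± 0.27 (SD, n = 4). Ncam1, a cell adhesion molecule that can serve as a receptor for GDNF with Gfra1, did not pass (7.98 ± 1.88), since replicate 1 had 5.19 where the other samples had 8.58 to 9.10.

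Of the adaptors and signalling proteins downstream of Ret, 21 of 23 measured genes were above background (91.3%), with 21 over the threshold in each sample. These proteins serve many receptor kinases. Shc1, an adaptor, had 9.70 ± 0.20 and Dok1, a docking protein, had 9.18 ± 0.06 (SD, n = 4). Shc3 at 6.32 ± 0.30 and Dok5 at 4.90 ± 0.65 were the 2 that did not pass, and Dok5 was named after its value was seen. Grb10, an adaptor that binds Ret and the insulin receptor, had 12.91, 13.37, 10.69 and 13.03 and so was lowest in replicate 3, with a root mean square difference of 0.31 from Ret; it was picked out after its values were seen.

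Of the genes known to respond to Ret in the ureteric bud, 8 of 14 measured ones were above background (57.1%), and the list also holds general targets of receptor kinases. Etv5, a transcription factor downstream of Ret, had 9.40 ± 0.64, while its relative Etv4 did not pass at 6.08 ± 1.08. Spry1 and Spry2, feedback inhibitors of receptor kinase signalling, had 9.72 ± 0.36 and 9.22 ± 0.39, while Spry4 did not pass at 7.25 ± 0.24. Dusp6, a phosphatase that limits ERK, had 13.47 ± 0.49, and Spred2, another inhibitor of the pathway, had 12.82 ± 0.50. Met, the receptor for hepatocyte growth factor, had 14.26 ± 0.38, Mmp14, a membrane metalloprotease, 9.24 ± 0.40 and Sox9, a transcription factor of the bud tip, 10.12 ± 0.82. Wnt11, a ligand made at the bud tip, did not pass at 7.72 ± 0.59, nor did Cxcr4 (6.001 ± 1.45), Myb (8.12 ± 1.16) or Sox8 (5.43 ± 0.27). In replicate 3, 10 of the 14 genes were higher than the mean of the other samples, with a median of 0.22, beside 54.6% and 0.08 over all named genes. Of the 8 above background 6 were higher there, with a median of 0.39, beside 47.4% and -0.05 over all genes above background. At the stricter background 3 of the 14 passed.

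The list labelled regulators of GDNF in kidney development also holds genes that act on Ret or on bud outgrowth, such as Gata3 and Bmp4. Of its 19 measured genes 12 were above background (63.2%). Eya1, a coactivator needed for Gdnf in the embryo, had 10.12 ± 0.70 and Six2, a homeobox factor of nephron progenitors, had 8.47 ± 0.22 (SD, n = 4), while Pax8, a paired box factor of the nephric lineage, did not pass at 6.42 ± 0.55. At the stricter background 5 of the 19 passed.

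The neurotrophins and their receptors, the other main family of nerve growth factors, had 3 of 6 measured genes above background (50%). Ntf5, the gene of neurotrophin 4, had 10.41 ± 0.40, Ntrk2, its receptor kinase, had 9.72 ± 0.76 and Sort1, a sorting receptor of the neurotrophin precursors, had 12.41 ± 0.54 (SD, n = 4). Bdnf at 7.75 ± 0.61, Ngfr at 6.96 ± 0.90 and Ntrk3 at 8.14 ± 0.70 did not pass. Ntrk2 was also lowest in replicate 3, at 8.59 against 9.93 to 10.24.

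Markers of the neurons and glia that respond to these ligands were mostly not above background. Of 20 measured genes of autonomic and sensory neurons 1 passed (5%, and 4 had an unadjusted p under 0.05), namely Isl1, a homeobox factor not particular to neurons, at 13.22 ± 0.62 (SD, n = 4), which was named after its values were seen. Th and Dbh, genes of noradrenaline synthesis, had 6.74 ± 0.78 and 8.18 ± 1.10, and Chrna3, a nicotinic receptor gene of ganglia, had 6.46 ± 0.26. Without a test, 4 to 6 of the 20 neuron genes were over the array's threshold in each sample. Tac1 did not pass (limma, adjusted p = 0.0916). Its levels in replicates 1 to 4 were 4.53, 11.31, 11.22 and 10.48, with only the first under the threshold. Dbh and Stmn2, which did not pass either, were each over the threshold in 3 of 4 samples. Tac1 and Stmn2 were named after their values were seen. Of 13 Schwann cell genes 4 passed (30.8%), with 5 to 8 over the threshold in each sample. Mbp, a myelin gene that was above background, had 12.51 ± 0.48, while Sox10, a factor of the glial lineage, at 7.71 ± 1.26 and S100b, a glial calcium-binding protein gene, at 7.48 ± 1.49 did not pass. In replicates 1 to 4 the levels of the neuron genes summed to 131, 135, 143 and 132 and those of the Schwann cell genes to 112, 116, 112 and 110. The median deviation of the Schwann cell genes was lowest in replicate 3, at -0.41 against 0.46, 0.44 and -0.22 in the other samples. Of the 13 Schwann cell genes 6 were higher in replicate 3 than the mean of the others, among them Sox10 by 1.57 and S100b by 1.45. All 4 Schwann cell genes above background were lower there than the mean of the others, and they are named after their values were seen. Pmp22, a myelin gene also used by other cells, had 13.29, 13.60, 10.91 and 13.19 and lay 0.28 from Ret in profile, and Mbp, Erbb3 and L1cam deviated by -0.74, -0.42 and -0.41. Isl1 was lowest in replicate 3 as well, at 12.37 against 13.33 to 13.84. The neuron sum was highest in that sample. There 13 of the 20 neuron genes were higher than the mean of the others, with a median deviation of 0.42. Uchl1, a gene that did not pass, deviated most, with 11.20 there and 6.94 to 7.51 in the others. It was named after its values were seen. The part of these cells in the level of Ret was not tested.

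**Figure D4:**
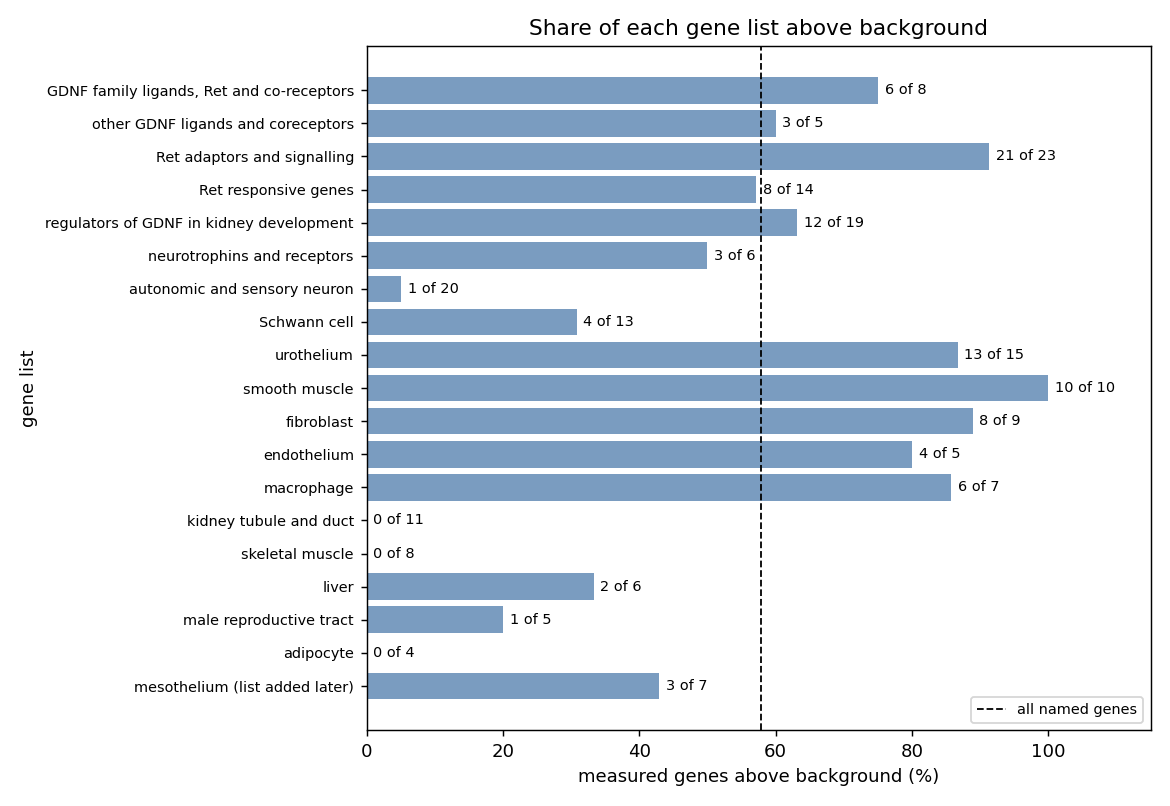
Percentage of measured genes above background (x axis) for the GDNF family members, the other lists of its pathway and the marker lists (y axis), with the count beside each bar and the share of all named genes, 57.9%, as a dashed line. The members reach 6 of 8 genes, the adaptors and signalling genes 21 of 23, and the neuron genes 1 of 20.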

How the data were processed

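The values the authors deposited are linear intensities, 1 for each probe set of each array. Per the submitters' processing notes they used GCOS. Its version is not given in the sources used here, nor is its algorithm. The mean without the highest and lowest 2% of values was 1500 on every array, so the arrays came scaled to a common mean and no further scaling was applied. The file holds 45101 probe sets, of which 64 controls were left out. Genes were named by the platform's annotation, with 34945 probe sets of 1 symbol, 932 of several and 9160 of none, and no gene was named from several. RefSeq's GRCm38.p6 table held the gene identifiers of 34741 of them and changed 0 symbols.

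Levels were log2(intensity + 16), which compresses differences among dim probe sets, and no filter on low values was used. limma 3.58.1 in R 4.3.3 tested the distance from the array's threshold with trended, robust variances over all 45037 probe sets, one-sided, with Benjamini-Hochberg adjustment. The spread test set the variance of that distance against limma's prior (F, 3 and 4.77 degrees of freedom). A gene's level was its probe set with the highest mean. Both tests were also run on data simulated from limma's own fitted prior, with normal noise and no error in the thresholds. Such data share the assumptions of the tests and cannot check them. For the spread test, simulated probe sets of raised spread entered the adjustment without needing a background call. In the real data a call was needed, so the simulation does not cover this step either. No chemosensory probe set was above background (0 of 84), but the thresholds were set from these same probe sets, so this count does not check them.

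The members, lists and tests were chosen with earlier results of these data known. The text names all members, the whole lists of other ligands and co-receptors, of Ret-responsive genes and of neurotrophins, the first 3 measured genes of each other list, the 3 genes most like each member above background, and genes said to be chosen after their values were seen. The mesothelium list was added after the data were seen. In all lists 25 written genes lacked a probe set with 1 symbol and were left out. Tried as alternatives were pseudocounts of 1 and 64, quantile normalization, a background at the 99th percentile or 3 median absolute deviations over the median (the stricter background), adjustment without the lowest 25% of probe sets, the level probe set alone or no _x_at and _s_at probe sets, no test, another prior variance, and each sample left out. Figures were drawn with matplotlib 3.10.9.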

Additional observations from a re-analysis of the deposited data

Results flagged for a closer look

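Among 108 probe sets of the members, the pathway genes and the genes most like a member, 10 had 1 sample that lay apart from the other 3, by a criterion on the gap within a group of 4 that chance meets in about 1 of 20 groups. Of the 15 member probe sets 2 did so. The leading Ret probe set had 10.59 in replicate 3, and the Gfra2 probe set 1425578_a_at had 6.70 in replicate 1, still under that array's threshold. Of the other genes of the pathway, Ncam1 had 5.19 in replicate 1, Dok5 had 5.86 in replicate 4, Gab1, a docking protein, had 13.69 in replicate 3, Hoxd11, a homeobox gene, had 7.85 in replicate 4 and Bmp4, an inhibitor of bud outgrowth, had 8.69 in replicate 3. Alox12 at 10.6, Muc15 at 7.002 and Upk3bl at 9.15 in replicate 3 were chosen for a profile like that of Ret, so these 3 are not independent of it.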

How the results depend on the processing

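The calls of Ret, Gfra1 and Nrtn as above background, and of Gdnf and Gfra4 as not, held under every alternative that gave a value for them; adjustment without the lowest 25% of probe sets gave none for Gdnf and Gfra4. No paired analysis was possible because all samples belong to 1 group. In all, 6 of 8 members were above background, 5 to 6 without 1 replicate and 3 at the stricter background (3 median absolute deviations over the median), where Gfra2, Gfra3 and Artn fell under it (mean distances of -0.56, -1.26 and -0.59 log2 units, adjusted p of 1, 1 and 1). All named genes above background went from 10535 to 7139 there. The adjusted p of Gfra3 was 0.442 at the 99th percentile and 0.0468 to 0.119 without 1 replicate. No member passed the spread test under any alternative, and 91 of all probe sets did at the stricter background. There the Ret-responsive genes above background were 3, those of the list labelled regulators of GDNF 5, smooth muscle 6, macrophage 2, liver 0 and male reproductive tract 0. The small lists also moved elsewhere. Liver, with 2 genes, had 1 with a pseudocount of 64, 1 after quantile normalization, 0 at the 99th percentile, 0 without a test and 0 to 3 without 1 replicate. Male reproductive tract, with 1, had 0 at the 99th percentile, 2 without the lowest 25% of probe sets and 1 to 2 without 1 replicate. Neuron genes, with 1, were 2 with a pseudocount of 64 and 1 to 2 without 1 replicate. Without 1 replicate fat cell genes were 0 to 1, kidney genes 0 to 1 and mesothelium genes 3 to 5, with 5 lacking replicate 3. The deviations of dim members depended on the scale. For Gdnf replicate 1 went to -1.01 with a pseudocount of 1 and -0.10 with 64, replicate 3 to 0.64 with 1 and 0.0043 after quantile normalization, and replicate 4 to 0.45 with 1. For Gfra3 quantile normalization gave 0.058, 0.65 and -0.36 in replicates 1, 2 and 3. Quantile normalization moved the median of all probe sets by 0.11, 0.20, -0.25 and -0.05 in replicates 1 to 4, and changed the sign of 5 deviations of Gdnf, Gfra2, Gfra3 and Artn. The cause of these changes was not tested. Signal over background limits Gfra3, Artn and Gfra2 most.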

Other observations

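Some further genes tied to Gdnf in the developing kidney differed between the samples. Slit2, a guidance ligand that limits the Gdnf domain, was at 8.41 in replicate 4 and otherwise at 10.60 to 11.18. Itga8, the integrin of the mesenchyme that faces the bud, had 12.51 in replicate 2 and 8.61 in replicate 3, and Foxc2, a forkhead factor, was at 6.79 in replicate 3 and otherwise at 9.21 to 10.10. Gata3, a zinc finger factor upstream of Ret in the nephric duct, had 14.23 ± 0.68 (SD, n = 4) and was highest in replicate 3 at 15.14, the sample in which the leading Ret probe set was lowest. These genes were picked out after their values were seen, and none of these differences was tested.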
